A study of Mus musculus with 20 samples.

Results

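Kcnq1ot1 and 9 genes that lie beside it on mouse chromosome 7 were followed in cultured mouse conceptuses exposed to mono-2-ethylhexyl phthalate (MEHP), the monoester that the body makes from the plasticizer di-2-ethylhexyl phthalate. The members were the array genes with the symbols Ascl2, Cd81, Tssc4, Kcnq1, Kcnq1ot1, Cdkn1c, Slc22a18, Phlda2, Nap1l4 and Osbpl5, in their order along the chromosome: 10 of 20794 genes, read by 17 of 38367 named probe sets. Kcnq1ot1 was chosen by its measured level, which earlier results of these arrays showed to differ between MEHP and control, so its differences between MEHP and control are given as a description with no test. The 9 neighbours were included for their position, and each was tested in a limma model fitted to all genes. Where a gene had several probe sets, the one with the highest mean over the 20 arrays stood for it.

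Conceptuses of the CD-1 strain were taken from untreated dams on gestational day 8 and kept in whole embryo culture for 24 h, then separated on day 9 into the embryo and its visceral yolk sac. The groups differed in tissue, in exposure (MEHP at 100 µg/ml, or dimethyl sulfoxide at 0.01% as the control) and in whether the embryo had a neural tube defect (NTD), a failure of the neural folds to close. In each tissue there were 3 MEHP arrays without NTD, 3 MEHP arrays with NTD, 3 control arrays without NTD and 1 control array with NTD, 20 arrays in all. The labels do not say how many conceptuses were pooled on an array, whether embryos and yolk sacs came from the same conceptuses, or whether the MEHP cultures also held dimethyl sulfoxide, so the p-values measure the spread between these arrays and cannot be assigned to animals or litters. The mean of 5 sex-linked genes (Xist and the Y-linked Ddx3y, Eif2s3y, Kdm5d and Uty) was 5.194 to 5.339 on 10 arrays and 7.323 to 8.588 on the other 10, and it was on the same side in both tissues for all 10 pairs of arrays that hold the same place in the column order of their group. The sides were not spread evenly over exposure. In embryos the mean was 5.252, 8.369 and 5.333 with MEHP and no NTD and 5.241, 5.251 and 8.588 with MEHP and NTD. It was 7.323, 5.228 and 7.724 in controls without NTD and 7.608 in the control with NTD. The part of sex in the MEHP differences was not tested. The tests between tissues treat all arrays as independent, and a shared conceptus was not tested. A mixture of tissue was measured on each array, and fewer cells of a type cannot be told apart from less RNA per cell.

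Kcnq1ot1 is a long noncoding RNA that is transcribed antisense to Kcnq1, starting inside that gene, from the paternal chromosome only. On the maternal chromosome its start site is methylated and silent. On the paternal chromosome the RNA stays near its own gene and, with Polycomb and histone methyltransferase complexes, silences neighbours in cis, the inner genes such as Cdkn1c in the embryo and its membranes and the outer genes such as Ascl2 and Osbpl5 mostly in the placenta. Array signal does not separate the 2 parental copies.

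The start regions of the 2 members whose levels the results turn on were taken from RefSeq's promoter table for the GRCm38.p6 build, from 250 bases before to 50 bases after the start and written 5′ to 3′ on the gene's strand. Capitals mark CCAAT, the box bound by the factor NF-Y.
Kcnq1ot1, chr7:143296498-143296797, minus strand: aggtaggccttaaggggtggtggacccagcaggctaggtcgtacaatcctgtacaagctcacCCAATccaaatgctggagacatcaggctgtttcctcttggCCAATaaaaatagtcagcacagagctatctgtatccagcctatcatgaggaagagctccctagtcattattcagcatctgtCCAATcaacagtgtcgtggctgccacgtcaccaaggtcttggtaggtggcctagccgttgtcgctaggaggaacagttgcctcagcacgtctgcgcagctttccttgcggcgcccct
Phlda2, chr7:143502475-143502774, minus strand: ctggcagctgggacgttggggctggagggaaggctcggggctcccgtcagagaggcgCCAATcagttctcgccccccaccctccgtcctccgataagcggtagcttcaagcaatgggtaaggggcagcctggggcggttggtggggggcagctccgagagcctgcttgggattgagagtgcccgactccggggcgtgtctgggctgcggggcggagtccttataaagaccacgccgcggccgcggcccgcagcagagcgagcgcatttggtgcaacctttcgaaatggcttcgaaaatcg
The Kcnq1ot1 window held 3 copies of CCAAT and 9 CG dinucleotides, and the Phlda2 window held 1 copy and 26 CG dinucleotides. CCAAT on either strand was found in 37.4% of 32851 windows of this length, and 3.37% held 3 or more. The median window held 7 CG dinucleotides. At least as many as in the Kcnq1ot1 window were found in 45.8% of windows, and at least as many as in the Phlda2 window in 16.9%. The table held windows for 7 of the 10 members, and the Ascl2 window also held 3 copies. A match describes these letters and does not show that a factor binds there.

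The tissue labels were borne out by marker genes. The mean log2 level of 8 markers of the embryo proper was between 9.296 and 9.667 on the 10 embryo arrays and between 4.199 and 4.391 on the 10 yolk sac arrays. The 12 visceral endoderm markers averaged 12.301 to 12.529 on yolk sac arrays and 5.323 to 7.541 on embryo arrays. The column names of the deposited tables carry no group. Groups were therefore taken from the authors' 4 deposited comparison tables, whose log2 differences were matched by a single split of the arrays in each table among all splits tried. A further deposited value table has sample headings that give another group to 13 of the 20 arrays and another tissue to 8. For those 8 arrays the marker levels above match the tissue of the comparison tables and not that of the headings. Under those headings the log2 difference of Kcnq1ot1 was -0.25 in embryos without NTD and 0.20 in yolk sacs without NTD, and -0.14 in yolk sacs with NTD, against 1.03 in embryos with NTD, so the values that follow rest on the grouping of the comparison tables. The 9 nonspecific control probe sets averaged 3.65 to 3.83 on the 12 MEHP arrays and 3.87 to 4.08 on the 8 control arrays, with no overlap. This background level therefore moved with exposure, and its part in the results cannot be told apart from that of MEHP. A fit with this level as a covariate was also run, but it cannot separate them, because the covariate largely follows exposure.

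Kcnq1ot1 RNA was higher with MEHP in both tissues, whether or not the embryo had an NTD. On the log2 scale its main probe set, 1442029_PM_at, read 8.29, 8.43 and 8.65 in MEHP embryos without NTD and 8.30, 8.54 and 8.38 in MEHP embryos with NTD, against 6.90, 7.41 and 6.63 in control embryos without NTD. The single control embryo array with NTD read 6.37. All 6 MEHP embryo arrays lay above all 4 control embryo arrays. In yolk sacs the probe set read 7.87, 8.09 and 8.19 with MEHP and no NTD and 8.10, 8.41 and 7.69 with MEHP and NTD, against 7.06, 6.23 and 6.90 in controls without NTD. The single control yolk sac array with NTD, at 7.32, was the highest of the yolk sac controls and still below the 6 MEHP yolk sac arrays.

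As a difference of group means, MEHP embryos without NTD exceeded control embryos by 1.48 ± 0.17 on the log2 scale (SE, n = 3 each), or 2.79-fold, and MEHP embryos with NTD exceeded the same controls by 1.43 ± 0.17, or 2.69-fold. For yolk sacs the values were 1.32 ± 0.22 (2.50-fold) without NTD and 1.34 ± 0.22 (2.53-fold) with NTD. The 2 comparisons in each tissue share their 3 control arrays and are not independent. The gene ranked 13 of 20794 by size of increase in embryos without NTD and 4 in yolk sacs without NTD. That rank describes how it was chosen and supports nothing further. MEHP and control arrays did not overlap, in either direction, for 35.2% of all genes in embryos without NTD, 29.5% in embryos with NTD, 23.6% in yolk sacs without NTD and 25.5% in yolk sacs with NTD. With the nonspecific probe set level as a covariate the Kcnq1ot1 differences were between 1.11 and 1.19 in the 4 comparisons. In embryos without NTD the SE of that fit was 0.35, against 0.17 without the covariate. RNA quality differed in part along with exposure in yolk sacs. The log2 signal of the 3′ minus the 5′ Gapdh control probe set, which grows as RNA is degraded, was 0.112 to 0.320 in MEHP yolk sacs without NTD and 0.112 to 0.174 in MEHP yolk sacs with NTD, against 0.386, 0.476 and 0.237 in controls without NTD, and the control array with 0.476 had the lowest Kcnq1ot1. The control yolk sac array with NTD was at 0.143, inside the MEHP range, as was the control at 0.237. In embryos this Gapdh difference was 0.092 to 0.124 without NTD and 0.088 to 0.352 with NTD, against 0.115 to 0.314 in controls without NTD. The control embryo array with NTD, which had the lowest Kcnq1ot1 in embryos, was at 0.140. The MEHP embryo array at 0.352 read 8.30 for Kcnq1ot1. Without arrays above 0.3, the Kcnq1ot1 differences were 1.14 and 1.17 in yolk sacs without and with NTD, with 1 control array without NTD left, and 1.31 and 1.30 in embryos. The authors' deposited table, which sets all 6 MEHP arrays against all 4 controls, gives log2 differences of 1.606 in embryos and 1.183 in yolk sacs.

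**Figure D1:**
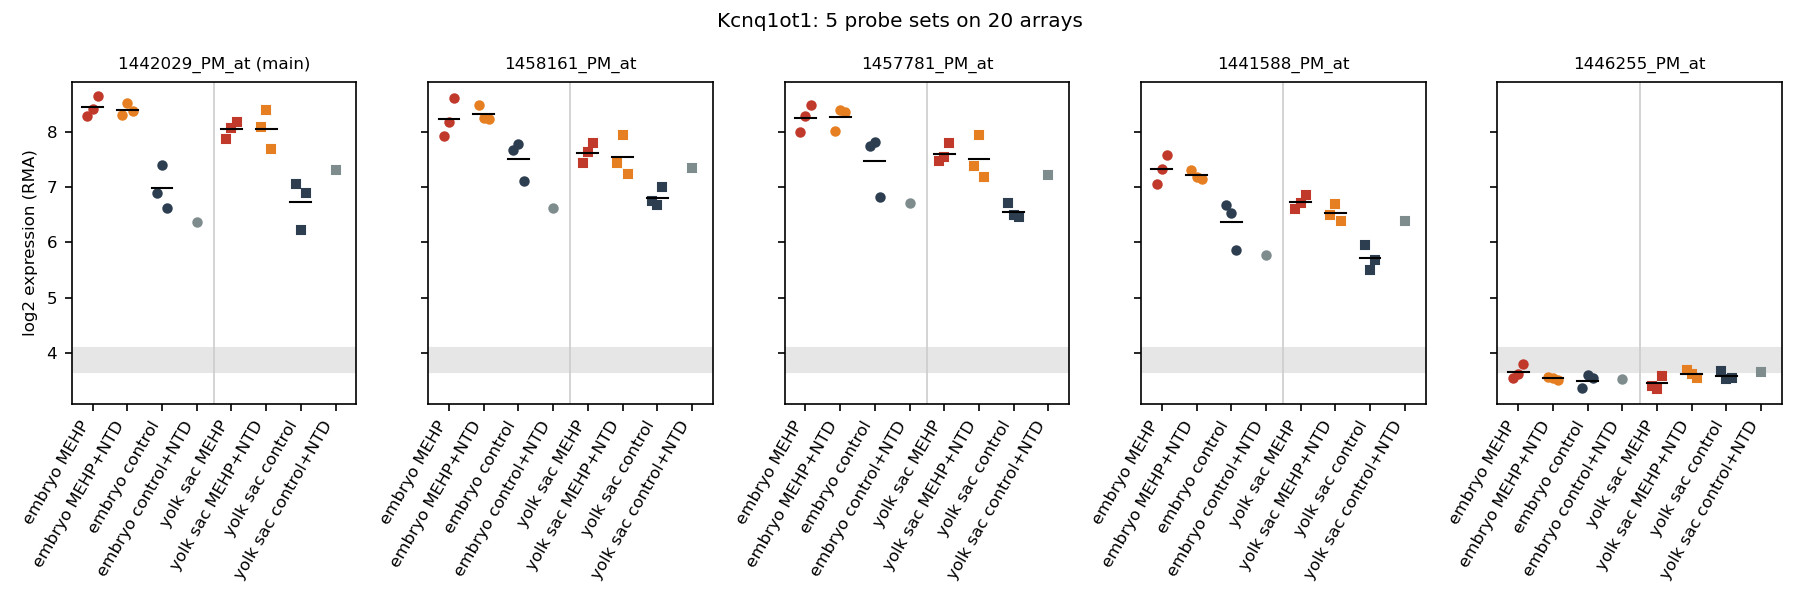
Log2 expression (y axis) of the 5 Kcnq1ot1 probe sets, 1 panel each, in 8 groups (x axis); each point is 1 array, circles are embryos, squares are yolk sacs, and bars are means of 3 arrays. The grey band spans the nonspecific control level of 3.65 to 4.08 over the arrays. In 4 panels the MEHP arrays without NTD lie above the controls without NTD of the same tissue, and in the panel of 1446255_PM_at all groups lie in or below the band.

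The 5 probe sets of Kcnq1ot1 were not alike in size. Probe sets 1458161_PM_at, 1457781_PM_at and 1441588_PM_at gave log2 differences of 0.72, 0.80 and 0.96 in embryos without NTD and 0.82, 1.05 and 1.01 in yolk sacs without NTD. In each of these 3 and in each MEHP comparison, the MEHP arrays did not overlap the 3 controls without NTD. The single control yolk sac array with NTD did overlap them: it read 7.344, 7.231 and 6.396 in these 3 probe sets, where the lowest of the 6 MEHP yolk sac arrays read 7.236, 7.194 and 6.388. The control embryo array with NTD lay below all 6 MEHP embryo arrays in each. Probe set 1446255_PM_at stayed between 3.34 and 3.80 on all 20 arrays, at the level of the nonspecific probe sets, and without NTD its MEHP difference was 0.15 for embryos and -0.14 for yolk sacs. Over the 10 arrays of a tissue the 4 probe sets above background correlated with each other at Pearson's r of 0.92 to 0.97. These arrays share the exposure contrast, so the correlation is a description.

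The MEHP difference in Kcnq1ot1 was then set side by side in the 2 tissues. The embryo difference minus the yolk sac difference was 0.16 ± 0.31 for the main probe set, with a 95% interval of -0.49 to 0.80, and between -0.25 and -0.05 for the other 3 probe sets above background. Their sign therefore depended on the probe set. When a single array was left out, the main value lay between -0.02 and 0.41.

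NTD status was not used to choose Kcnq1ot1, so it was tested within the MEHP groups. MEHP embryos with NTD averaged 8.41 ± 0.12 and MEHP embryos without NTD 8.46 ± 0.18 (SD, n = 3 each), a log2 difference of -0.05 with a 95% interval of -0.43 to 0.33 (limma adjusted p = 0.994). MEHP yolk sacs with NTD averaged 8.07 ± 0.36 and those without NTD 8.05 ± 0.16 (SD, n = 3 each), a difference of 0.02 with an interval of -0.47 to 0.51 (limma adjusted p = 0.991). The arrays overlapped in both tissues. Among all genes, 0.024% passed the test for NTD in MEHP embryos and 0.0% in MEHP yolk sacs, and 1177 and 2002 genes had an unadjusted p under 0.05.

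Among control arrays without NTD, Kcnq1ot1 averaged 6.98 ± 0.39 in embryos and 6.73 ± 0.44 in yolk sacs (SD, n = 3 each), a difference of 0.25 with a 95% interval of -0.20 to 0.71 (limma adjusted p = 0.361). The other probe sets above background gave larger values in the same direction, 0.71, 0.91 and 0.65, with limma adjusted p of 0.00669, 0.00294 and 0.0054 in a fit of every named probe set, where 46.8% passed. A tissue difference was thus called by 3 probe sets and not by the main one.

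**Figure D2:**
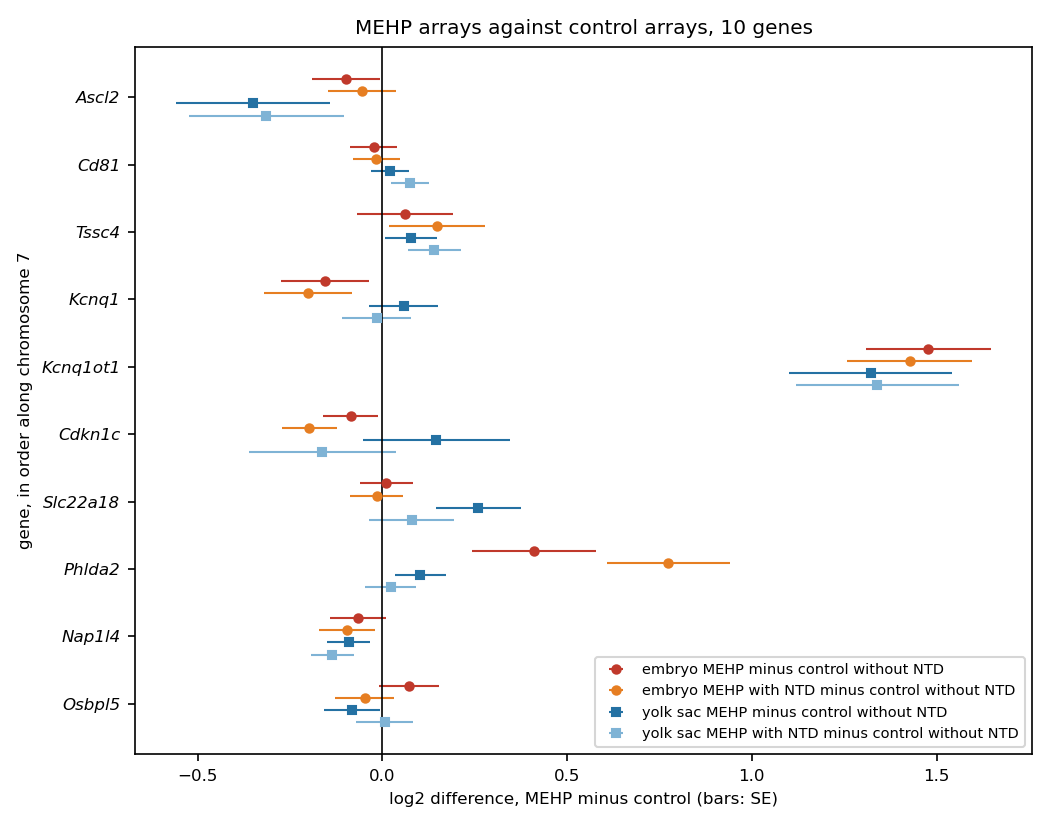
Log2 difference between MEHP and control arrays (x axis) for the 10 genes in order along chromosome 7 (y axis), with bars of 1 SE; circles are embryos and squares yolk sacs, and each tissue has 1 comparison without NTD and 1 with NTD against the same 3 control arrays. Kcnq1ot1 lies between 1.32 and 1.48 in all 4 comparisons, and Phlda2 in embryos, at 0.41 and 0.77, is the next highest.

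The genes around Kcnq1ot1 were each tested for MEHP, and the counts that passed are given beside the share of all genes. With 9 genes, a count of 0 or 1 cannot be told apart from these shares. In embryos without NTD, 0 of the 9 neighbours passed limma's test for MEHP against control, where 9.72% of all genes did. An unadjusted p under 0.05 was found for 1 of them, and for 5994 of all 20794 genes. Their log2 differences ran from -0.15 to 0.41 with a median of -0.02, beside a median of -0.05 over all genes. Of the 2021 genes called, 39.3% were higher, against 66.4% of 958 after cyclic loess scaling and 56.0% of 998 after quantile scaling. The 95% intervals of the 9 differences together reached from -0.42 to 0.78. In MEHP embryos with NTD against the same controls 1 of 9 passed, Phlda2, where 7.45% of all genes did, and the median of the 9 was -0.05, as over all genes. Of those 1549 calls 43.1% were higher, against 68.5% of 717 after cyclic loess and 59.7% of 792 after quantile scaling. For yolk sacs without NTD the share was 61.5% of 65, against 75.0% of 52 after cyclic loess. In yolk sacs 0 of 9 passed without NTD, against 0.313% of all genes, and 0 of 9 with NTD, against 2.38%. Each comparison had 1 unadjusted p under 0.05, against 3554 and 4327 of all genes. The medians of the 9 in yolk sacs were 0.06 without NTD and 0.01 with NTD.

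Cdkn1c encodes the cyclin-dependent kinase inhibitor p57Kip2, which holds back cell division, and is expressed from the maternal copy. It read 10.65, 10.58 and 10.60 in MEHP embryos without NTD and 10.52, 10.55 and 10.43 in MEHP embryos with NTD, against 10.72, 10.79 and 10.58 in controls without NTD. The 3 MEHP arrays with NTD lay just below the controls, while those without NTD overlapped them. The differences were -0.09 without NTD (95% interval -0.25 to 0.08, limma adjusted p = 0.475) and -0.20 with NTD (-0.36 to -0.03, limma adjusted p = 0.119), so neither passed. In yolk sacs the differences were 0.15 and -0.16, and the 3 MEHP arrays with NTD ranged from 10.48 to 11.37, wider than either of the other groups.

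Phlda2 encodes a small pleckstrin homology protein that restrains placental growth and is expressed from the maternal copy. It read 7.16, 7.11 and 7.37 in MEHP embryos without NTD and 7.23, 7.89 and 7.62 in MEHP embryos with NTD, against 6.54, 7.05 and 6.82 in control embryos without NTD. Both sets of 3 MEHP arrays lay above the 3 controls, although the single control array with NTD, at 7.30, lay inside the MEHP range. With NTD the difference was 0.77 ± 0.17 (95% interval 0.40 to 1.15, 1.71-fold, limma adjusted p = 0.0276). Without NTD it was 0.41 ± 0.17 (0.04 to 0.78, limma adjusted p = 0.138), and between the 2 MEHP groups it was 0.36 (-0.01 to 0.73, limma adjusted p = 0.889).

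The Phlda2 call was not stable. It was lost when only the 2 groups compared entered the fit (limma adjusted p = 0.0713). With the nonspecific probe set level as a covariate the difference was 0.19 ± 0.31 (limma adjusted p = 0.905), in a fit that cannot separate this level from exposure. The call was also lost without MEHP array 2 with NTD (0.62, limma adjusted p = 0.0814), MEHP array 3 with NTD (0.75, limma adjusted p = 0.0703) or control array 1 (0.64, limma adjusted p = 0.0796). Phlda2 was near 12 in every yolk sac group, so the visceral endoderm markers are given beside it: their mean was 5.51, 5.76 and 7.54 in MEHP embryos without NTD, 5.84, 6.75 and 6.31 in MEHP embryos with NTD, and 5.32, 7.15 and 5.45 in controls without NTD. In each group the array with the highest marker level also had the highest Phlda2. With that level as a covariate, an alternative chosen after the data were seen, the difference with NTD was 0.70 (limma adjusted p = 0.0236), and without the 3 embryo arrays above 6.5 it was 0.74 (limma adjusted p = 0.099).

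The means of some other marker lists also differed between MEHP and control embryos, and their part in the Phlda2 difference was not tested. Among all 20794 genes 9.72% passed for MEHP in embryos without NTD, 3.82% higher and 1227 genes lower. With NTD 7.45% passed, 3.21% higher and 882 genes lower. In lists this short, counts of 1 or 2 cannot be told apart from these shares. The mean of 9 parietal endoderm markers was 8.611 to 8.727 on the 6 MEHP embryo arrays and 8.407 to 8.528 on the 4 control embryo arrays, with no overlap. Krt19, a keratin, and Lamb1, a laminin chain, rose in both MEHP comparisons, and the other 7 did not pass. The 12 measured trophoblast and decidua markers averaged 4.119 to 4.216 on MEHP embryo arrays and 4.305 to 4.395 on control embryo arrays, near the nonspecific level, and 4 fell without NTD and 0 with NTD. The 7 macrophage markers averaged 4.206 to 4.390 with MEHP and 4.526 to 4.538 in controls. Of these 7, 1 fell without NTD and 2 with NTD, including Csf1r, the receptor of colony stimulating factor 1. These means lay close to those of the trophoblast and decidua markers, and the nonspecific level moved the same way as both lists. The means of 8 primitive erythroid and 6 endothelial markers overlapped between MEHP and control embryos, although 1 erythroid marker, Hba-a1, fell without NTD. The 8 embryo proper markers averaged 9.552 to 9.586 with MEHP and no NTD and 9.445 to 9.667 with MEHP and NTD. In controls they averaged 9.296 to 9.462 without NTD and 9.592 on the array with NTD. Of these 8, 1 rose and 1 fell without NTD, and 2 rose and 0 fell with NTD.

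**Figure D3:**
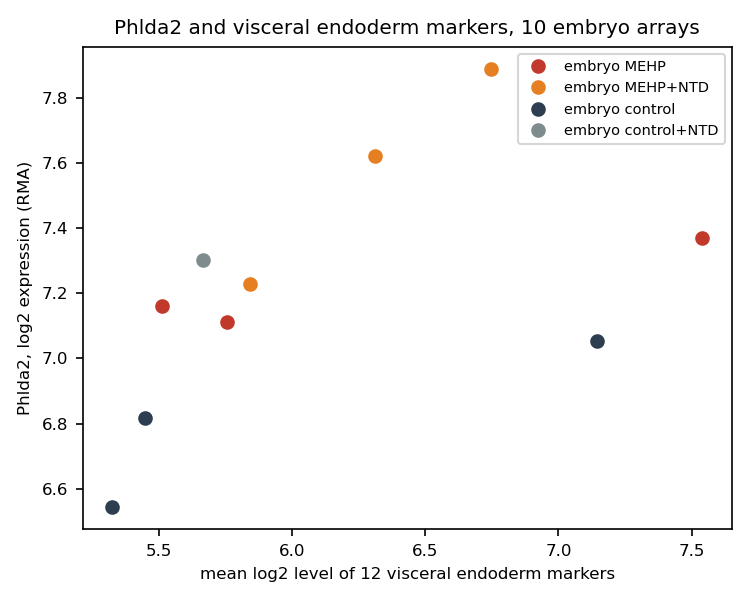
Log2 expression of Phlda2 (y axis) against the mean log2 level of 12 visceral endoderm markers (x axis) on the 10 embryo arrays; each point is 1 array, coloured by group. The 6 MEHP arrays read 7.11 to 7.89 and the 3 control arrays without NTD 6.54 to 7.05, while marker levels of these groups overlap.

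Slc22a18, an organic cation transporter-like membrane protein also expressed from the maternal copy, gave answers that depended on the probe set. The main probe set, 1417809_PM_at, was at 4.36 to 4.48 in MEHP embryos without NTD and 4.33 to 4.48 in controls without NTD, not far above background, with a difference of 0.01 (limma adjusted p = 0.934). The second, 1427531_PM_a_at, read 4.58, 4.76 and 4.76 in MEHP embryos without NTD, against 5.31, 5.18 and 5.01 in controls without NTD. That difference was -0.47 ± 0.09 (95% interval -0.68 to -0.26, limma adjusted p = 0.0178 in the fit of every named probe set, where 10.6% passed). In MEHP embryos with NTD it was -0.27 (limma adjusted p = 0.109), and in yolk sacs 0.07 without NTD and -0.03 with NTD. The 2 probe sets thus gave different values in the embryo, where the main one lay so low that a fall was hardly detectable. The nonspecific level was also lower with MEHP, at 3.65 to 3.83 against 3.87 to 4.08 in controls. Its part in the difference of the second probe set cannot be told apart from that of MEHP.

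By its main probe set, no other neighbour passed in an MEHP comparison. Cd81, a tetraspanin of the cell surface, stayed between 10.28 and 10.48 on all 20 arrays. Nap1l4, a nucleosome assembly protein, differed by -0.07 and -0.10 in embryos and by -0.09 and -0.14 in yolk sacs. None of these 4 values passed, and the yolk sac value with NTD had a 95% interval of -0.27 to -0.01. Tssc4, which takes part in assembling the spliceosome, differed by 0.06 and 0.15 in embryos and 0.08 and 0.14 in yolk sacs, within intervals that reached from -0.23 to 0.43.

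Kcnq1, the potassium channel subunit whose gene contains the Kcnq1ot1 start, was at 3.88 to 4.49 on all arrays, close to the nonspecific level, so a change in it was hardly detectable. Ascl2, a transcription factor needed for the placental spongiotrophoblast, was at 3.75 to 4.80 and Osbpl5, an oxysterol-binding lipid carrier, at 4.38 to 4.73. In yolk sacs without NTD, Ascl2 differed by -0.35 (limma adjusted p = 0.423), with a 95% interval of -0.81 to 0.12.

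**Figure D4:**
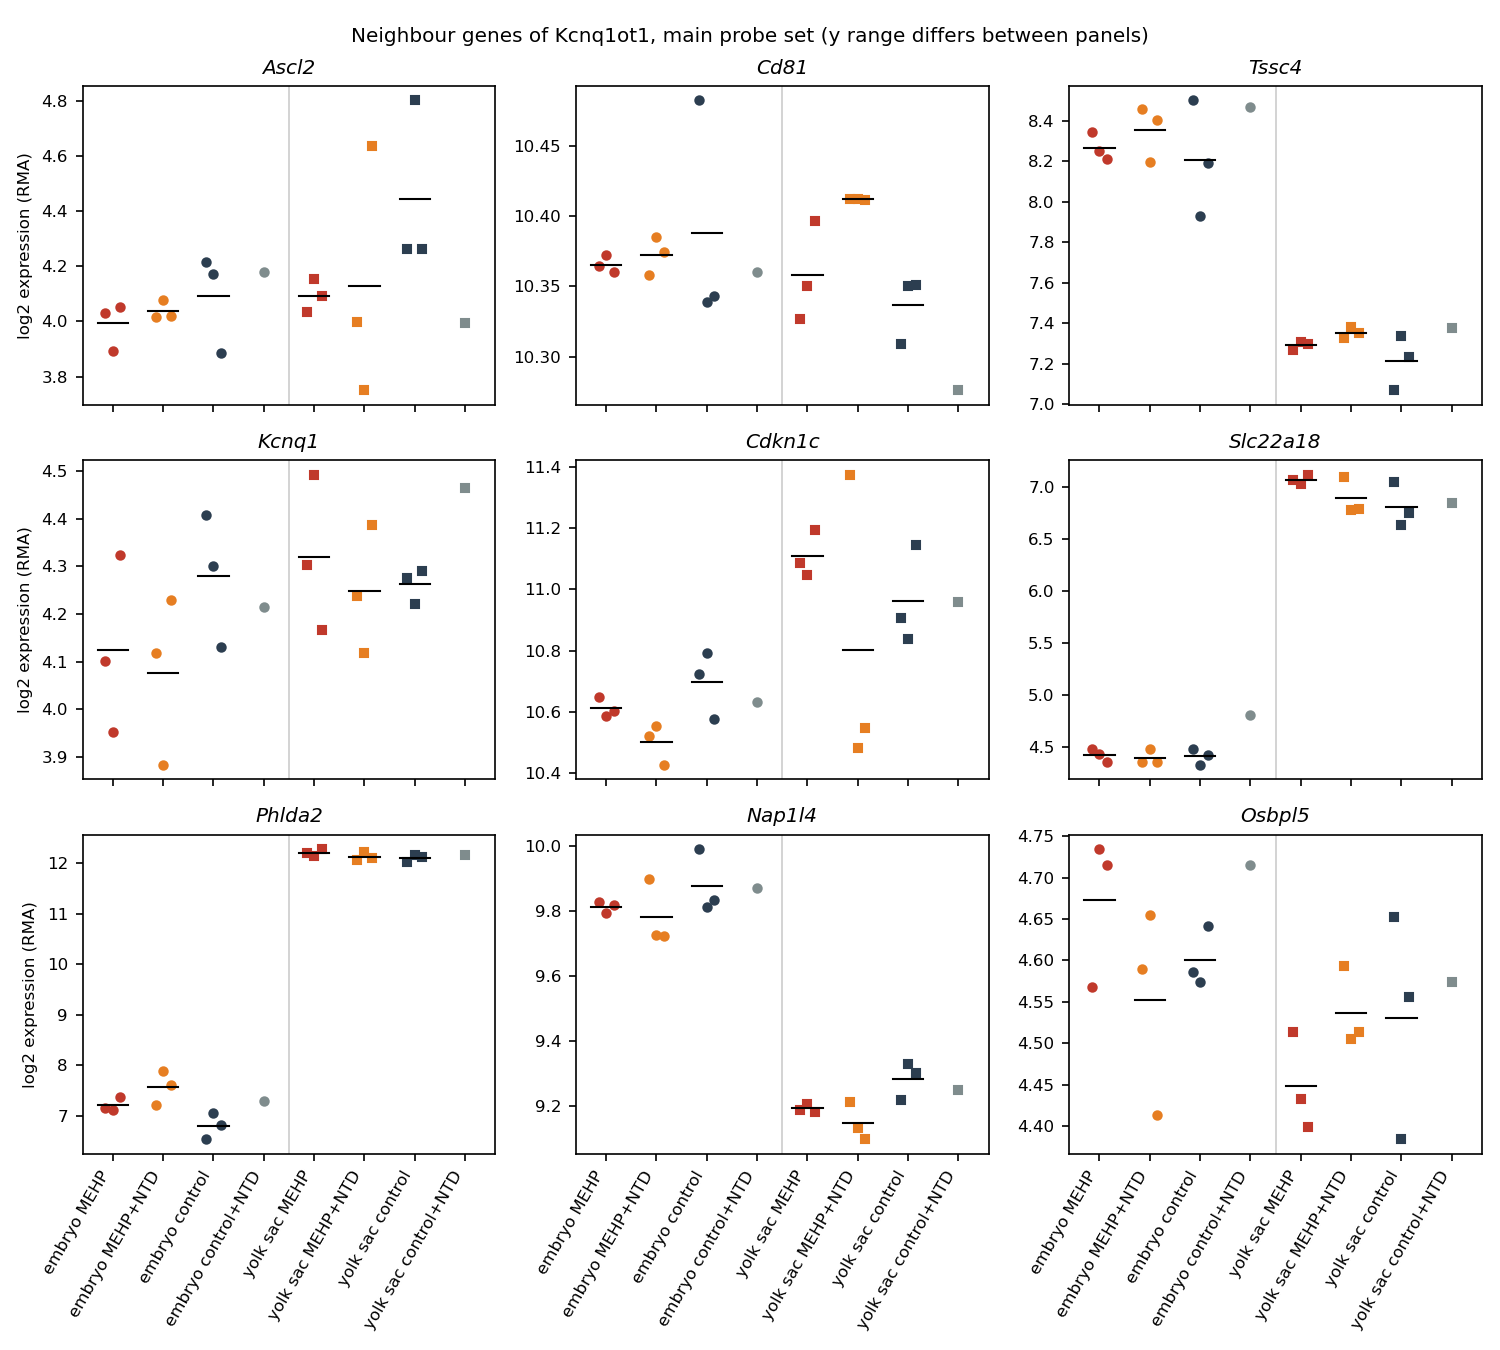
Log2 expression (y axis, range differs between panels) of the 9 neighbour genes by group (x axis); each point is 1 array, circles are embryos, squares are yolk sacs, and bars are means of 3 arrays. Phlda2 and Slc22a18 are higher in yolk sacs and Tssc4 and Nap1l4 in embryos, and only Phlda2 shows 3 MEHP embryo arrays above the 3 controls both with and without NTD.

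For NTD status among MEHP arrays no neighbour passed: 0 of 9 passed in embryos and 0 of 9 in yolk sacs by limma, where 0.024% and 0.0% of all genes did. In either tissue 0 had an unadjusted p under 0.05, against 1177 genes in embryos and 2002 in yolk sacs. The lowest adjusted p was 0.889 in embryos and 0.677 in yolk sacs. The 95% intervals of the 9 differences together reached from -0.31 to 0.73 in embryos and from -0.75 to 0.50 in yolk sacs. The test of whether the MEHP difference itself differed between tissues called 0 of 9 neighbours, where 0.0769% of all genes passed and 0 neighbours had an unadjusted p under 0.05. The test of whether the NTD difference differed between tissues called 0 of 10 members, where 0.0144% of all genes passed. In that test 1 neighbour, Phlda2, had an unadjusted p under 0.05, against 1589 of all genes. Its value, embryo minus yolk sac, was 0.44 with a 95% interval of 0.03 to 0.86 (limma adjusted p = 0.608).

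In control arrays without NTD, 4 of 9 neighbours differed between embryo and yolk sac, where 51.3% of all genes did. Phlda2 averaged 6.80 ± 0.26 in embryos and 12.10 ± 0.07 in yolk sacs (SD, n = 3 each), a log2 difference of -5.29 (limma adjusted p = 5.62e-15). Slc22a18 averaged 4.41 ± 0.08 in embryos and 6.82 ± 0.21 in yolk sacs (SD, n = 3 each; log2 difference -2.40, limma adjusted p = 1.26e-12). The other 2 were higher in embryos: Tssc4 averaged 8.21 ± 0.29 in embryos and 7.21 ± 0.13 in yolk sacs (difference 0.99, limma adjusted p = 5.56e-07), and Nap1l4 averaged 9.88 ± 0.10 in embryos and 9.28 ± 0.06 in yolk sacs (difference 0.59, limma adjusted p = 3.8e-07). Under the sample headings, which give 8 arrays a tissue that their marker levels contradict, each of these 4 kept its direction and lost its call (limma adjusted p of 0.0759 to 0.114). Cdkn1c differed by -0.27 (limma adjusted p = 0.188), with its 3 embryo arrays below its 3 yolk sac arrays.

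Genes that act with Kcnq1ot1 were measured from lists chosen with earlier results known. Of 31 genes for Polycomb subunits, histone and DNA methyltransferases, imprint keepers and NF-Y subunits, 0 passed in any MEHP or NTD comparison by limma. Among all genes 9.72% and 7.45% passed for MEHP in embryos without and with NTD, 0.313% and 2.38% in yolk sacs, and 0.024% and 0.0% for NTD in MEHP embryos and yolk sacs. For MEHP in embryos without and with NTD, 1 and 2 of the 31 had an unadjusted p under 0.05, against 5994 and 5752 of all 20794 genes. In yolk sacs 5 and 5 did, against 3554 and 4327. For NTD within MEHP 2 did in embryos and 3 in yolk sacs, against 1177 and 2002. Their median difference was 0.02 in embryos without NTD, beside -0.05 over all genes, and -0.01 in yolk sacs without NTD, beside -0.02. Between control embryos and yolk sacs 18 were higher and 6 lower, where 51.3% of all genes passed in either direction, among them Ezh2, the Polycomb methyltransferase (1.16), and Cbx7, a Polycomb reader (-3.46).

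Other noncoding RNAs also rose in embryos. Of 17 measured nuclear or small-RNA host transcripts, 5 rose and 0 fell in MEHP embryos without NTD, where 3.82% of all genes rose, and the median of the 17 was 0.05. Ftx, from the X inactivation centre, rose by 1.19 ± 0.18 (limma adjusted p = 0.0093), and the imprinted Snhg14 rose by 0.70 ± 0.15 (limma adjusted p = 0.025). Mirg, Malat1 and Snhg1 rose by 0.62, 0.48 and 0.29. Beside Ftx, the mean level of Xist, the X-linked RNA of female cells, was 11.77 in those MEHP embryos and 9.62 in controls without NTD, and the part of embryo sex was not tested. With NTD 5 of 17 rose, where 3.21% of all genes did: Ftx, Snhg14, Mirg, Snhg1 and Airn, the imprinted antisense RNA of Igf2r (0.79 ± 0.19, limma adjusted p = 0.0351). In yolk sacs 0 of 17 passed without NTD, where 0.313% of all genes did, and 10 had an unadjusted p under 0.05, against 3554 of all genes. With NTD, where 2.38% of all genes passed, Airn rose by 0.80 and Miat fell by 0.35. With the nonspecific probe set level as a covariate, 0 genes of all 20794 passed in either embryo MEHP comparison or in yolk sacs without NTD, and 1 passed in yolk sacs with NTD, a gene that fell. The calls of listed genes in embryos, and that of Airn in yolk sacs, were therefore lost in that fit. That fit cannot separate the background level from exposure, so no conclusion is drawn from the loss.

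Among 16 other genes of the region, lying between the members or on either side of them, 1 rose and 2 fell in MEHP embryos without NTD, where 9.72% of all genes passed, and 1 rose and 3 fell with NTD, where 7.45% passed. Nadsyn1, a synthetase of NAD, rose by 0.37 and Th, the enzyme of catecholamine synthesis, and Mrgpre fell by 0.42 and 0.28 in MEHP embryos without NTD. With NTD, Cars, the cysteinyl-tRNA synthetase, rose by 0.52 and Th, Ins2 and Mrgpre fell by 0.57, 0.37 and 0.31. Th and Mrgpre lay at 3.71 to 4.53 in group means, near the nonspecific level that moved the same way. In yolk sacs 0 of 16 passed in either MEHP comparison, where 0.313% and 2.38% of all genes did without and with NTD. An unadjusted p under 0.05 was found for 5 and 4 of the 16, against 3554 and 4327 of all genes. Of 28 measured relatives and partners of the member proteins, 1 passed in MEHP embryos without NTD (Ifitm1, a Cd81 partner, which fell by 0.34) and 1 with NTD (Phlda1, which rose by 0.35), beside the same shares of all genes. In yolk sacs 0 of 28 passed without NTD, where 0.313% of all genes did, and 2 with NTD, where 2.38% did: Cd82 and Cdkn1a fell by 0.87 and 0.38.

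The genes whose levels followed Kcnq1ot1 most closely were not its neighbours. Among 10396 genes at or above the median level, those with the highest value of the smaller of 2 Pearson correlations, 1 over the 10 embryo arrays and 1 over the 10 yolk sac arrays, were AA415038, 9530006C21Rik, A730059M13Rik, D9Ertd306e, D2Ertd612e and Mycbp2, with r of 0.95 to 0.99. AA415038, for example, averaged 7.98 in MEHP embryos without NTD and 6.76 in control embryos without NTD, and 7.09 in MEHP yolk sacs without NTD and 6.01 in control yolk sacs without NTD. By rank correlation 2 of the 6 were the same. Kcnq1, Ascl2, Osbpl5 and Slc22a18 averaged below the median gene, 5.718, and could not enter this ranking. Among the neighbours, Phlda2 had r of 0.60 with Kcnq1ot1 in embryos and 0.35 in yolk sacs. Nap1l4 had -0.55 in embryos and -0.78 in yolk sacs, Slc22a18 -0.57 and 0.59, Ascl2 -0.35 and -0.72, and Cd81 -0.14 and 0.51. Kcnq1 had -0.41 and -0.1, Cdkn1c -0.45 and 0.04, Tssc4 -0.12 and 0.31, and Osbpl5 -0.13 and -0.03. Each r runs over MEHP and control arrays together, and Kcnq1ot1 was chosen for its difference between them. The ranking therefore favours genes that differ with exposure, and the correlations are descriptions.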

How the data were processed

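RNA of 20 samples was measured on Affymetrix arrays. The log2 values were made by the authors with RMA, per the submitters' processing notes, which also name R 2.15.1 and limma. No genome build is named in the labels or file headers. The authors' deposited comparison tables add log2 differences, a ratio of class means and p-values. Of these, log2 differences for Kcnq1ot1 are printed. Array columns were assigned to groups as described above, and array numbers are names only. From the 45141 probe sets, 6670 that had no gene symbol and 104 control sets were removed.

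The members and lists were chosen with earlier results of these data known. limma 3.58.1 in R 4.3.3 (lmFit, eBayes, two-sided, Benjamini-Hochberg adjustment over 20794 genes, threshold 0.05) was fitted with 1 mean per group, over 10 arrays within a tissue and over 20 across tissues. The procedure was tested on simulated data. The number of arrays limits the precision. Genes named were all members, the listed genes that passed (at most 6 a list) and the 6 genes most like Kcnq1ot1. Alternatives covered probe sets, normalization, filters, covariates, arrays left out and the sample headings.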

Additional observations from a re-analysis of the deposited data

How the results depend on the processing

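No paired analysis was possible because the array columns carry no replicate number, if pairs are to be taken from labels. A fit that pairs embryos with yolk sacs by column order could have been made, but it was not run. The sex-linked mean was on the same side in both tissues for all 10 pairs in that order. The tests between tissues therefore leave out a pairing that may be present, and its effect on them was not tested. Of 159 counts of members past the threshold under an alternative, 147 stayed within 1.5 times the count reported and 12 moved. Most reported counts were 0, and a 0 that stayed 0 is among the 147, so this share says little about stability. Of 1581 values of single members, 1541 kept their side of the threshold or stayed within the spread between arrays, 11 fell below the threshold, 9 passed it, 7 moved and 13 reversed, and a further 146 changed sign without a call. The count of 1 neighbour called in MEHP embryos with NTD against controls without NTD (Phlda2) fell to 0.0 with only the groups compared, with the nonspecific level as covariate, under the sample headings, and without the 3 embryo arrays of high visceral endoderm markers, and it was 0.0 to 1.0 when 1 array was left out; the cause was not tested. The last of these and the marker covariate were chosen after the data were seen.

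The sample headings give 8 arrays a tissue that their marker levels contradict. Under them the counts were 4.0 in embryos without NTD, 4.0 for NTD in MEHP yolk sacs, 1.0 between control tissues (Kcnq1ot1, while all 4 neighbours reported there were lost), 4.0 for the MEHP difference between tissues and 5.0 for the NTD difference between tissues. In embryos without NTD, Kcnq1ot1 was then -0.253 and Tssc4 -0.992. Kcnq1ot1 was -0.137 in yolk sacs with NTD and -1.223 between control tissues. For NTD in MEHP yolk sacs, Phlda2 was 4.54, Slc22a18 2.496 and Tssc4 -0.998. For the MEHP difference between tissues, Slc22a18 was 4.158 and Nap1l4 -0.973. For the NTD difference between tissues, Kcnq1ot1 was 1.626, Phlda2 -7.827 and Slc22a18 -4.055. The second probe set turned Slc22a18 to -0.469 in embryos without NTD. With 1 array left out, the MEHP difference of Kcnq1ot1 was 1.305 to 1.691 in embryos and 1.071 to 1.489 in yolk sacs without NTD. Counts over all genes moved more. In embryos without NTD 2021 genes were called, against 488 without dim genes, 3439 with all 20 arrays in 1 fit, 3309 without arrays of a high RNA 3'/5' ratio, 88 without the 3 high-marker arrays, 6521 under the headings and 286 to 2493 with 1 array left out. In embryos with NTD 1549 were called, against 511, 3006, 2148, 86 and 0 under the same settings, 348 with only the groups compared, and 270 to 1937 with 1 array left out. In yolk sacs with NTD 494 were called, against 15 with only the groups compared, 0 without arrays of a high 3'/5' ratio and 18 to 192 with 1 array left out, and without NTD 65, against 28 without dim genes, 199 with a trended robust fit, 0 without arrays of a high 3'/5' ratio and 1 to 2 with 1 array left out. The lists of other genes were not recomputed gene by gene under the alternatives. Signal near the nonspecific level limits Kcnq1, Ascl2 and Osbpl5, and the main probe set of Slc22a18 in embryos.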
